A study of Mus musculus with 44 samples.

Results

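The proteasome subunit genes were taken as the protein-coding genes whose symbol starts with Psma, Psmb, Psmc, Psmd, Psme, Psmf or Psmg, which gave 50 of 55335 gene rows, 21899 of them protein-coding. They were measured in ribosome-bound RNA from the hippocampus of male Emx1-NuTRAP mice, in which Cre driven by the Emx1 promoter switches on an EGFP-tagged ribosomal protein, mostly in excitatory neurons. Mice in the early-life exercise (ELE) groups had a running wheel from postnatal day 21 to 41, and sedentary mice of the same genotype and age had none. Each of the 20 libraries came from 1 mouse. In simultaneous isolation of nuclei and tagged ribosomes (SIT) both hippocampi of a mouse were combined, with 4 ELE and 4 sedentary libraries, and in separate isolation 1 hippocampus was used, with 3 ELE and 3 sedentary libraries from the left side and 3 and 3 from the right. Emx1-Cre is also active in some glia, so a transcript recovered here is not neuronal by design alone.

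The proteasome is the protease that degrades proteins tagged with ubiquitin. Its 20S core is a barrel of alpha rings, which gate entry, around beta rings, which hold the catalytic sites, and its 19S cap recognises, unfolds and feeds in the substrate with a base of ATPases and a lid that removes ubiquitin. Interferon can replace the catalytic beta subunits by immunoproteasome counterparts, and in neurons the proteasome is known for turning over synaptic proteins. Of the 50 genes, 14 encode the constitutive core (Psma1 to Psma7 and Psmb1 to Psmb7) and 17 the cap, and the other genes are 3 immunoproteasome subunits, 7 assembly chaperones, 6 activators or regulators, the testis subunit Psma8, the thymus subunit Psmb11 and Psmc3ip. Psmc3ip met the naming rule but encodes a meiotic recombination factor that is no part of the proteasome.

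The results turn on the 3 constitutive catalytic genes and their counterparts, so the RefSeq promoter windows (GRCm38.p6, 250 bases before to 50 after the annotated start, 5′ to 3′ on the gene's strand) of 5 of these 6 genes are shown, the window of Psmb7 not being in the table used. Capitals mark the first match, on either strand, to TGACNNNGC, the core of the antioxidant response element used by the proteasome gene activator Nfe2l1 and by Nfe2l2, in Psmb5 (chr14:54617946-54618245, minus strand, match from base 204) and Psmb6 (chr11:70525107-70525406, plus strand, match from base 242). In Psmb8 (chr17:34197945-34198244, plus strand) they mark TTCNNNGAA from base 154, the letters of a gamma-activated site, which interferon signalling uses. Neither motif was found in the windows of Psmb9 (chr17:34187281-34187580, minus strand) and Psmb10 (chr8:105938343-105938642, minus strand).
Psmb5: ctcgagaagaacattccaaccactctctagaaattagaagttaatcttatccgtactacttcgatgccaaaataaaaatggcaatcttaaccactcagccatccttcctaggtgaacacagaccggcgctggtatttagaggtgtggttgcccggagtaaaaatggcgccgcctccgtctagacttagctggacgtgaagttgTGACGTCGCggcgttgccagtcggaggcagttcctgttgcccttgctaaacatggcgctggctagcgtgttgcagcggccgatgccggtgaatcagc
Psmb6: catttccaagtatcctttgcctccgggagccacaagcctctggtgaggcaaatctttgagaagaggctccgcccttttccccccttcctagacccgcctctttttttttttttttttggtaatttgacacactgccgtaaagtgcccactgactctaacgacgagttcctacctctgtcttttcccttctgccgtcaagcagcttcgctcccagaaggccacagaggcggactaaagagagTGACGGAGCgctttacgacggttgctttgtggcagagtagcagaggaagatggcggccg
Psmb8: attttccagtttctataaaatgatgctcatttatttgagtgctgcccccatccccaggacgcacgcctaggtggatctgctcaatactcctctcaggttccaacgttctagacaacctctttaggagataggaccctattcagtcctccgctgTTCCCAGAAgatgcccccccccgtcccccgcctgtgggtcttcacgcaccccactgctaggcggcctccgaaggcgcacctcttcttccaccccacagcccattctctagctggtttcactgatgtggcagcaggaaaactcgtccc
Psmb9: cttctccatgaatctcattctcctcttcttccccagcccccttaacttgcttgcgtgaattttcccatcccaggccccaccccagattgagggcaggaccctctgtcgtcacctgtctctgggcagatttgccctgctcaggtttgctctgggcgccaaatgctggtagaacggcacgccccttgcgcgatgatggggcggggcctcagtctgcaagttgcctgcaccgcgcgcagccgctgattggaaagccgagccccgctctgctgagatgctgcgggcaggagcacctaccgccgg
Psmb10: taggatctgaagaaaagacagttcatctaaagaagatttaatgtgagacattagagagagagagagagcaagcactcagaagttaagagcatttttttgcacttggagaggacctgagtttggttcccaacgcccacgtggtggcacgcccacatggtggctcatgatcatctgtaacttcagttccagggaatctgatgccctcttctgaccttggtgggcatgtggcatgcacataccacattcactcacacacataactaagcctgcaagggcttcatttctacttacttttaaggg

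RefSeq windows were found for 42 of the 50 genes, which had 45 windows in all. TGACNNNGC was in 6 of the 45 (13.3%; Psmb5, Psmb6, Psmc6, Psmd12, Psmd9 and Psme4) and in 12.4% of all 32851 windows of the same length. TTCNNNGAA was in 3 (6.67%; Psmb8, Psmd2 and Psmg1) against 8.3% of all, and the interferon-stimulated response element (a pair of GAAA runs with 2 free bases between) in 5 (11.1%; Psmb3, Psmd4, Psmd9, Psme1 and Psmg4) against 3.44% of all. The ETS-factor site CCGGAAGT was in 10 windows of 9 genes (22.2%; Psma6, Psmc1, Psmc2, Psmd12, Psmd13, Psmd6, Psme3, Psme4 and Psmg3) against 3.89% of all. CCAAT was in 15 (33.3%) against 37.4%, and TATAAA in 4 (8.89%) against 13.6%. All motifs were searched on both strands, and a match is a run of letters that was not tested as a binding site.

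Library totals were 45895097 to 65767802 counts. The SIT comparison used the 3 ELE libraries (mice NT6.303, TG7.4.1 and TG7.4.2) and the 2 sedentary libraries (NT6.305 and NT6.306) that the study kept, which leaves 17 libraries. Both sedentary SIT libraries outside that selection (NT7.2.3, NT7.2.4) stood apart. Mitochondrial genes held 8.64% and 9.64% of their counts, against 0.0704% to 0.523% in the other 18 libraries. Their summed microglial markers were at 230 to 239 CPM (counts relative to the library total after edgeR's TMM scaling) against 7.25 to 16.0, their interneuron markers at 804 to 840 against 40.7 to 109, their oligodendrocyte markers at 4358 to 4939 against 2336 to 3844, and their excitatory-neuron markers at 10417 to 10519 against 11428 to 14515. Every marker list had each of its genes above 1 CPM in at least 1 library. Exercise results in SIT use the study's selection, and the values with all 8 libraries are set beside them.

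Genes of the core and cap were well represented on the tagged ribosomes. Levels are given as CPM per kb of exon, which allows genes to be compared, as the mean ± SD of the 17 libraries. The 12821 protein-coding genes averaging 1 CPM or more had a median of 5.64 per kb (quartiles 1.91 and 15.8), and all 31 core and cap genes lay above that median, with a median of 28.9. Of the 50 genes, 45 averaged 1 CPM or more. The 5 below were Psma8, Psmb8, Psmb9, Psmb11 and Psme2b.

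**Figure D1:**
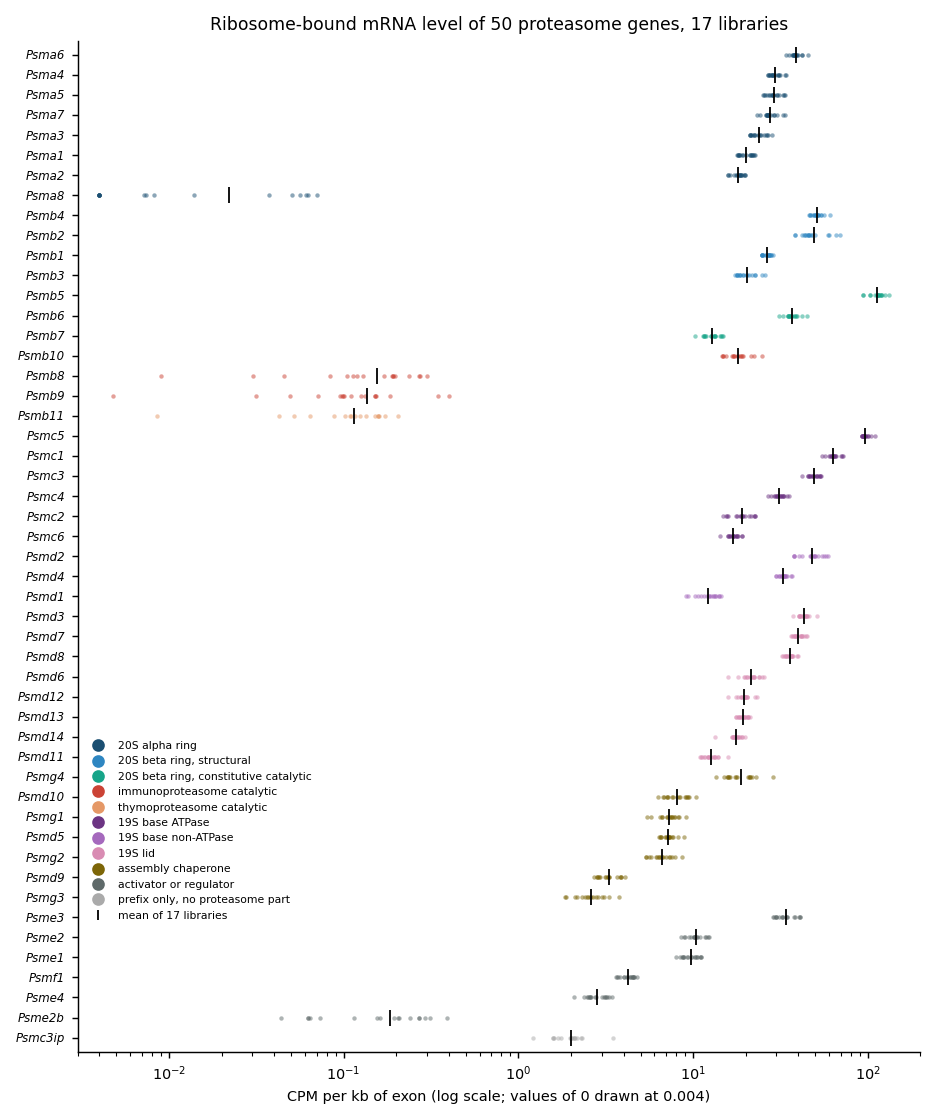
Level of the 50 proteasome genes in 17 libraries (points) with the mean (bar), as CPM per kb of exon on a log axis, coloured by role, with values of 0 drawn at 0.004. Psmb5 and Psmc5 lie highest, and Psmb8, Psmb9, Psmb11, Psma8 and Psme2b lie apart below 1 per kb.

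Psmb5, the chymotrypsin-like site of the core, had the highest level at 113 ± 10.0 CPM per kb, followed by Psmc5, an ATPase of the cap base, at 96.5 ± 4.82. Within the alpha ring the constitutive subunits ran from Psma6 at 38.7 ± 2.64 down to Psma2 at 18.1, and within the structural beta subunits from Psmb4 at 51.1 to Psmb3 at 20.2. The cap ATPases ended with Psmc6 at 16.99, the base scaffolds were Psmd2 at 47.8 and Psmd1 at 12.2, and the lid ran from Psmd3 at 42.9 to Psmd11 at 12.6. These spans within one complex moved with the length used. With the length of the principal transcript in place of all exons, Psmd3 went from 42.9 to 99.2 per kb and Psmb6 went from 36.8 to 86.3, while Psmb5 stayed at 113. Among neighbours in the order, Psmc3 and Psmb2 had the same mean of 49.0 per kb and Psmd2 a mean of 47.8, so that these 3 cannot be ranked.

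The 7 assembly chaperones had a median of 7.22 CPM per kb and the 6 activators or regulators one of 6.95. Psmg4, a chaperone of core assembly, was the highest chaperone at 18.7 CPM per kb and Psmg3 the lowest at 2.61. Of the activators, Psme3 (PA28 gamma, a nuclear cap) was at 33.9, and Psme2 and Psme1, the interferon-responsive PA28 beta and alpha, were at 10.4 and 9.67. Psmf1, which encodes the regulator PI31, was at 4.23 and Psme4, the PA200 cap, at 2.80. Psme2b, a near copy of Psme2 between which reads may be split, was at 0.183 and is uncertain. Psmc3ip was at 2.00.

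The immunoproteasome genes were not expressed alike. Psmb10, which takes the place of Psmb7, was at 18.1 ± 2.74 CPM per kb, whereas Psmb8, which takes that of Psmb5, was at 0.156 and Psmb9, which takes that of Psmb6, at 0.135. Counts of Psmb8 were 2 to 76 and of Psmb9 1 to 96 over the 20 libraries, so their levels rest on few reads. Psmb9 overlaps the peptide transporter gene Tap1 on the opposite strand, and counting was by strand. Psmb10 against Psmb7 (12.8 ± 1.33) depended on the length: Psmb10 made up 52.5% to 68.5% of the pair per kb of exon (median 56.9%) and 32.8% to 49.0% (median 36.8%) per kb of the principal transcript. The 3 immunoproteasome genes were 8.10% to 13.5% of the 6 catalytic genes per kb of exon (median 9.79%). In these bulk libraries fewer cells of a type and less RNA per cell cannot be told apart.

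**Figure D2:**
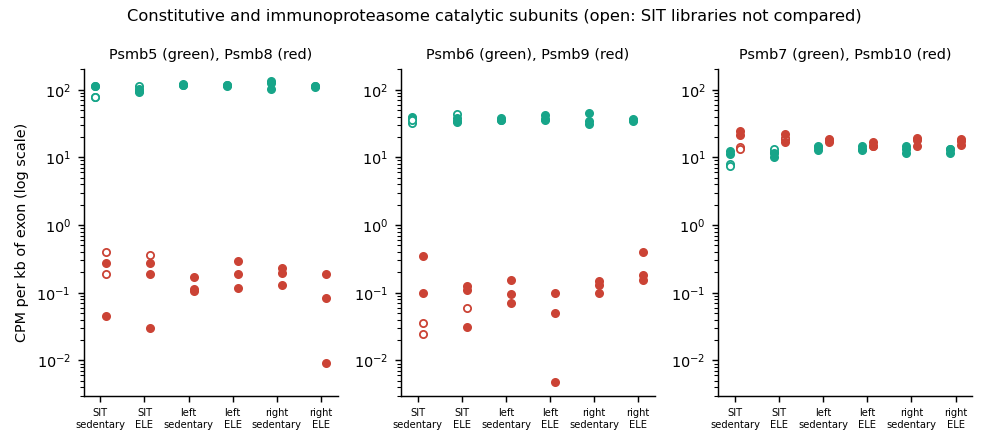
CPM per kb of exon, on a log axis, of each constitutive catalytic gene (green) and its immunoproteasome counterpart (red) in every library, by group, with SIT libraries outside the main comparison drawn open. Psmb8 and Psmb9 lie far below Psmb5 and Psmb6, while Psmb10 overlaps Psmb7.

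Psma8, the testis form of an alpha subunit, had 0 to 15 counts per library and Psmb11, the thymus catalytic subunit, 1 to 51. The summed core genes were at 908 to 1160 CPM in the 17 libraries (median 992) and the summed cap genes at 1601 to 1881 (median 1695), with a cap-to-core ratio of 1.62 to 1.77. The 2 NT7.2 libraries lay below these ranges, at 838 to 849 for the core and 1372 to 1412 for the cap. Their mitochondrial, microglial, interneuron and oligodendrocyte values, given above, moved with these sums, and the part of those cells or of RNA quality in them was not tested. The ELE library NT6.304, also outside the study's selection, had the highest core sum of the 20 at 1174.

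**Figure D3:**
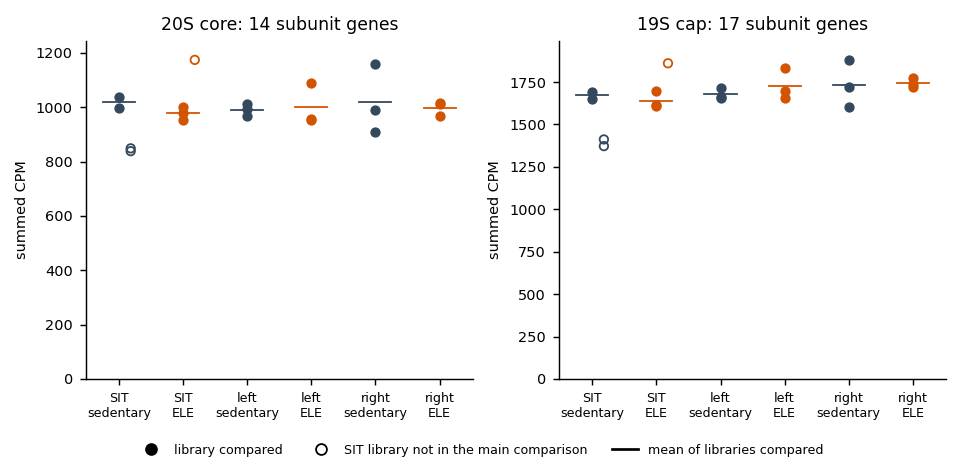
Summed CPM of the 14 core genes and the 17 cap genes in each library by group, with lines at the mean of the libraries compared and open points for SIT libraries outside the main comparison. The ELE and sedentary libraries of the left and right hippocampus overlap, and the 2 low open points in the sedentary SIT group come from the NT7.2 mice.

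The design asked whether early-life exercise moved these genes, and tests were edgeR quasi-likelihood tests across all genes, with 48, 48 and 49 of the 50 genes passing the filter on low counts in SIT, left and right. Psma8 was tested nowhere and Psme2b on the right alone. No gene passed a Benjamini-Hochberg adjusted p of 0.05: the lowest adjusted p of a proteasome gene in edgeR's test was 0.906 in SIT, 0.960 on the left and 0.9998 on the right. At an unadjusted p under 0.05, 0 genes were higher and 1 lower in SIT, where 5.48% of all genes tested passed in either direction. On the left 0 were higher and 0 lower, with 3.94% of all genes passing, and on the right 0 and 0, with 2.78% of all genes passing. DESeq2 gave 1, 0 and 0 genes at that threshold. The p-values measure the spread between mice. In SIT the ELE libraries TG7.4.1 and TG7.4.2 had no sedentary library whose mouse number started alike, and NT6.305 and NT6.306 were the sedentary ones. Exercise there cannot be fully told apart from mouse number.

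The 1 gene was Psmb5, which carries the chymotrypsin-like site. Its sedentary SIT libraries were at 101 and 102 CPM and its ELE libraries at 84.3, 92.6 and 84.9. Both sedentary libraries lay above all 3 ELE libraries. The 5 choroid plexus markers separated the same libraries, with sums of 586 to 669 CPM in sedentary and 129 to 573 in ELE libraries, and their part in the result was not tested. The means were 87.3 ± 4.61 CPM in ELE (SD, n = 3) and 102 ± 0.645 in sedentary mice (SD, n = 2). The log2 fold change of ELE over sedentary was -0.23 (SE 0.0995, 95% interval -0.45 to -0.0045) with an unadjusted p of 0.0463 and an adjusted p of 0.906 in edgeR's quasi-likelihood test. The libraries left out of that comparison were at 104 CPM in ELE and at 69.4 and 69.3 in sedentary mice, and with all 8 the groups overlapped and the log2 fold change was 0.09 (adjusted p = 0.876). On the left the ELE libraries were at 102, 106 and 106 CPM and the sedentary libraries at 104, 108 and 107, with a log2 fold change of -0.02 (adjusted p = 0.984). On the right they were at 103, 101 and 98.6 against 113, 119 and 92.3, with -0.09 (adjusted p = 0.9998). The groups overlapped on both sides.

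The other catalytic genes were followed library by library as well. Psmb6, the caspase-like site, was at 61.6, 65.5 and 72.5 CPM in ELE and at 73.2 and 71.1 in sedentary SIT libraries, and Psmb7, the trypsin-like site, at 40.6, 39.5 and 34.9 against 39.0 and 43.2. Both overlapped between groups. Psmb10 was at 32.3, 29.2 and 37.8 CPM in ELE and at 36.5 and 42.0 in sedentary SIT libraries, with a log2 fold change of -0.25 (adjusted p = 0.951). With all 8 it was 0.07 (adjusted p = 0.925), with Psmb6 at 0.06 and Psmb7 at 0.25. On the left Psmb10 was at 25.2, 28.9 and 24.9 CPM in ELE and 30.8, 31.6 and 28.4 in sedentary mice, which overlapped, with -0.20 (adjusted p = 0.960), and on the right at 26.3, 32.1 and 29.4 against 30.5, 33.1 and 25.3, with -0.01 (adjusted p = 0.9998). The test of Psmb10 passed an unadjusted p of 0.05 in none of the 3 comparisons.

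None of the genes with the largest fold changes passed the test. In SIT they were Psmb9 at -1.32, Psmb11 at -0.38 and Psmg2, a chaperone of core assembly, at -0.34 on the log2 scale. With all 8 SIT libraries these 3 were at -0.63, 0.09 and -0.15. On the left they were Psmb9 at -1.06, Psmb8 at 0.65 and Psmc3ip at -0.31, and on the right Psme2b at -1.09, Psmb8 at -0.997 and Psmb9 at 0.97. Single libraries moved these values: without TG9.2.2 the lowest of any tested gene on the left was -0.52, and without TG9.1.3 the highest on the right was 0.42. Psmb9 on the right had 28, 96 and 38 counts in ELE and 22, 27 and 20 in sedentary libraries, which did not overlap (adjusted p = 0.9998). Psmb8 there had 14, 2 and 36 counts in ELE and 20, 39 and 37 in sedentary libraries, which overlapped.

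As classes, core and cap genes moved little. The median log2 fold change of the 48 tested genes in SIT was -0.05, with 13 positive, where all genes had a median of 0.00 and 50.2% positive. Of the 14 core genes 3 were positive (median -0.06) and of the 17 cap genes 6 (median -0.04). With all 8 SIT libraries the sign was the other way, at a median of 0.10 with 40 of 48 positive, 14 of the 14 core genes among them, against 0.00 and 50.7% over all genes. At an unadjusted p under 0.05, 0 proteasome genes passed with all 8, and 9.07% of all genes did. The NT7.2 libraries, with the lowest core and cap sums, are sedentary, and their part in that direction beyond the medians given here was not tested.

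On the left the median was 0.02 with 29 of 48 positive, against 0.00 and 50.9% over all genes, and 15 of the 17 cap genes were positive (median 0.05). On the right it was -0.01 with 20 of 49 positive, against 48.7% over all genes. Of the 14 core genes on the left 7 were positive (median 0.00). On the right 10 of the 17 cap genes (median 0.01) and 4 of the 14 core genes (median -0.03) were positive. These directions turned with 1 library: without TG9.1.4 the left had 20 of 49 positive (median -0.01), and without TG9.1.1 the right had 35 of 49 positive (median 0.04). From library to library the median deviation of the 31 core and cap genes from their group's mean had an SD of 0.0707 on the log2 scale. The assembly chaperones had 6 of 7 negative in SIT (median -0.14), but 6 of 7 positive with all 8 SIT libraries (median 0.12). On the left 4 of 7 chaperones were negative (median -0.04) and on the right 5 of 7 (median -0.12).

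**Figure D4:**
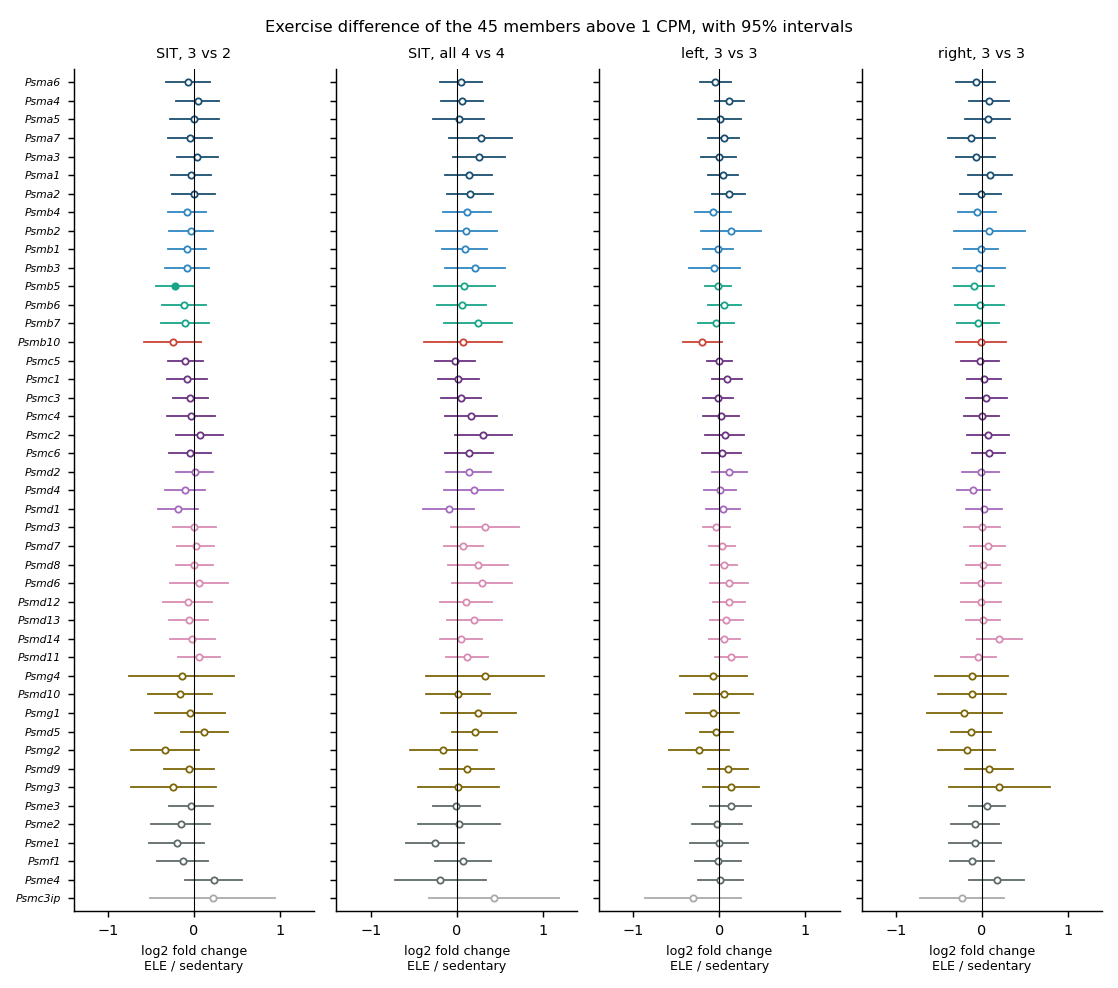
Log2 fold change of ELE over sedentary with its 95% interval for the 45 genes of at least 1 CPM, in SIT with the study's selection, in SIT with all 8 libraries, and in left and right libraries, with a filled point where the unadjusted p is under 0.05. Psmb5 in SIT is the only filled point, and it lies at 0.09 with all 8 libraries.

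The size of change that the data allow was narrow for most of these genes. The 95% interval of the log2 fold change lay within a 1.5-fold change in either direction for 41 of 48 genes in SIT, 44 of 48 on the left and 42 of 49 on the right, including all 31 core and cap genes in each. The median half-width was 0.258, 0.207 and 0.246 on the log2 scale. With all 8 SIT libraries 34 of 48 intervals were that narrow, 25 of the 31 core and cap genes among them. Wider intervals in SIT were those of Psmb8, Psmb9, Psmb11, Psmc3ip, Psmg2, Psmg3 and Psmg4. For Psmb8 and Psmb9 a change larger than 1.5-fold lay inside the interval in all 3 comparisons.

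A fit over both hemispheres and its interaction term asked whether exercise acted alike on both sides. These fits reuse the left and right libraries. For the interaction 0 genes were higher and 0 lower at an unadjusted p under 0.05, with 2.6% of all genes passing, and Psmb9 had the largest value at -2.02 (adjusted p = 0.99996). Over both hemispheres 0 genes were higher and 1 lower, with 5.31% of all genes passing. That gene was Psmg2, at 11.2, 9.74 and 12.2 CPM on the left and 10.0, 11.1 and 9.40 on the right in ELE, and at 12.6, 11.6 and 15.0 and at 10.6, 12.8 and 11.3 in sedentary mice. The groups overlapped. Its log2 fold change was -0.21 (SE 0.0971) with an unadjusted p of 0.0491 and an adjusted p of 0.924 in edgeR's quasi-likelihood test. It no longer passed under DESeq2, median-of-ratios scaling, no filter on low counts or a block by mouse number, with fold changes of about the same size. In SIT, in other mice, Psmg2 was at 10.8, 11.7 and 9.31 CPM in ELE and 13.6 and 13.1 in sedentary mice, which did not overlap (log2 fold change -0.34, adjusted p = 0.932). The sedentary libraries left out there were at 9.36 and 11.0 CPM, and with all 8 the groups overlapped and the value was -0.15 (adjusted p = 0.795).

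Between the left and right hippocampus of sedentary mice 0 genes passed an unadjusted p under 0.05, where 2.49% of all genes did. The median log2 difference of left over right was -0.03 with 13 of 49 positive, against 49.1% over all genes. Without the right sedentary library TG9.1.1 it was 0.05 with 35 of 49 positive.

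The isolation itself was compared in sedentary mice, 2 SIT libraries against 6 separate ones, and the protocol cannot be told apart from the mouse cohort. At an unadjusted p under 0.05, 10 of 49 genes were higher in SIT, where 12.5% of all genes were, and 4 were lower, where 15.8% were. Together this was near the 28.3% of all genes that passed in either direction. After adjustment 5 passed, where 13.6% of all genes did. These 5, named after their values were seen, were Psmd9, Psmb10 and Psme3, which rose in SIT, and Psmd2 and Psmc2, which fell. Without TG9.1.1 the 5 became 10, and the genes passing over all genes went from 2565 of 18911 to 3417 of 18778. Leaving out NT6.305 or NT6.306 leaves 1 SIT library, and the median log2 fold change of the proteasome genes was then 0.10 or 0.08. Markers of other cells moved with this comparison: the 6 astrocyte markers summed to 3014 to 3139 CPM in the SIT and 3985 to 5613.5 in the separate libraries, and the 6 interneuron markers to 75.1 to 75.8 against 40.7 to 62.9. The 8 excitatory-neuron markers summed to 11669 to 11693 CPM in SIT and to 11726 to 14160 in the separate libraries. Mitochondrial genes held 0.245% and 0.426% of the counts in SIT and 0.0704% to 0.103% in the separate libraries. The part of these in the result was not tested.

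Psmd9, a chaperone of the cap base, was at 29.7 and 27.7 CPM in SIT and at 20.4 to 22.9 in the 6 separate libraries, with a log2 fold change of 0.43 (SE 0.0903) and an adjusted p of 0.00856 in edgeR's test. Psme3 was at 121 and 111 CPM against 84.9 to 102, at 0.36 (adjusted p = 0.0127 in edgeR's test). Psmb10 was at 36.5 and 42.0 CPM against 25.3 to 33.1, at 0.40 (adjusted p = 0.0243 in edgeR's test). In these 3 genes both SIT libraries lay above all 6 separate ones. Psmd2, a base scaffold, was at 152 and 163 CPM against 188 to 234, at -0.37 (adjusted p = 0.0152 in edgeR's test), and Psmc2, a base ATPase, was at -0.32 (adjusted p = 0.0463 in edgeR's test). Both SIT libraries of these 2 genes lay below all 6 separate ones. The genes given here were picked because they passed this same comparison, so separation of their libraries follows largely from the pick. No share of all genes separated in this way is given, so it does not set proteasome genes apart.

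With all 4 sedentary SIT libraries, where 26.9% of all genes passed an unadjusted p under 0.05, 3 proteasome genes were higher (Psmd9, Psmd11 and Psme3) and 7 lower, among them Psmb5, Psmd2 and Psmc2. After adjustment 4 of 49 passed there, where 2261 of 18086 genes did. Psmd9 no longer passed (adjusted p = 0.139 in edgeR's test). Psmb10 then had a log2 fold change of 0.08 (adjusted p = 0.809), its NT7.2 libraries being at 24.1 and 22.3 CPM. The median log2 fold change was 0.09 with 33 of 49 positive for the 2 libraries and -0.04 with 20 of 49 for the 4. Over all genes 49.2% and 50.6% were positive. All 7 assembly chaperones were positive with the 2 libraries (median 0.27), and 3 of 7 with the 4 (median -0.05).

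Core and cap genes varied together from library to library. In log2 CPM with each group's mean taken out, the mean of Pearson's r over pairs of genes was 0.546 within the core, 0.391 within the cap and 0.468 over both, across the 17 libraries, against 0.00459 over all 14127 genes with at least 1 CPM. The 28 genes of the wider ubiquitin-proteasome pathway had a mean of 0.202. The libraries share TMM scaling, their batches are not labelled, and genes are not independent replicates, so r is a description. It was lowest without TG9.1.1, at 0.340 within the core and 0.229 within the cap. In TG9.1.1 all 31 genes lay above their group's mean, with a median deviation of 0.138. In TG9.1.4, a left ELE library, 29 of 31 lay above (median 0.112), and in TG9.2.3, a right sedentary library, 1 of 31 did (median -0.110).

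Among single genes the structural subunits Psmb2, Psmb3 and Psma6 followed the other core and cap genes most closely, with a mean r of 0.654, 0.595 and 0.587. The alternative cap genes Psme1, Psme4 and Psme2 had the lowest mean r, at -0.223, -0.0838 and -0.00882, whereas Psme3 was at 0.358. The chaperones had a mean pairwise r of 0.179, which was 0.0532 without TG9.1.1, and the activators one of -0.0389. The chaperone Psmg4 and the lid gene Psmd3 had the closest pair at r = 0.929.

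**Figure D5:**
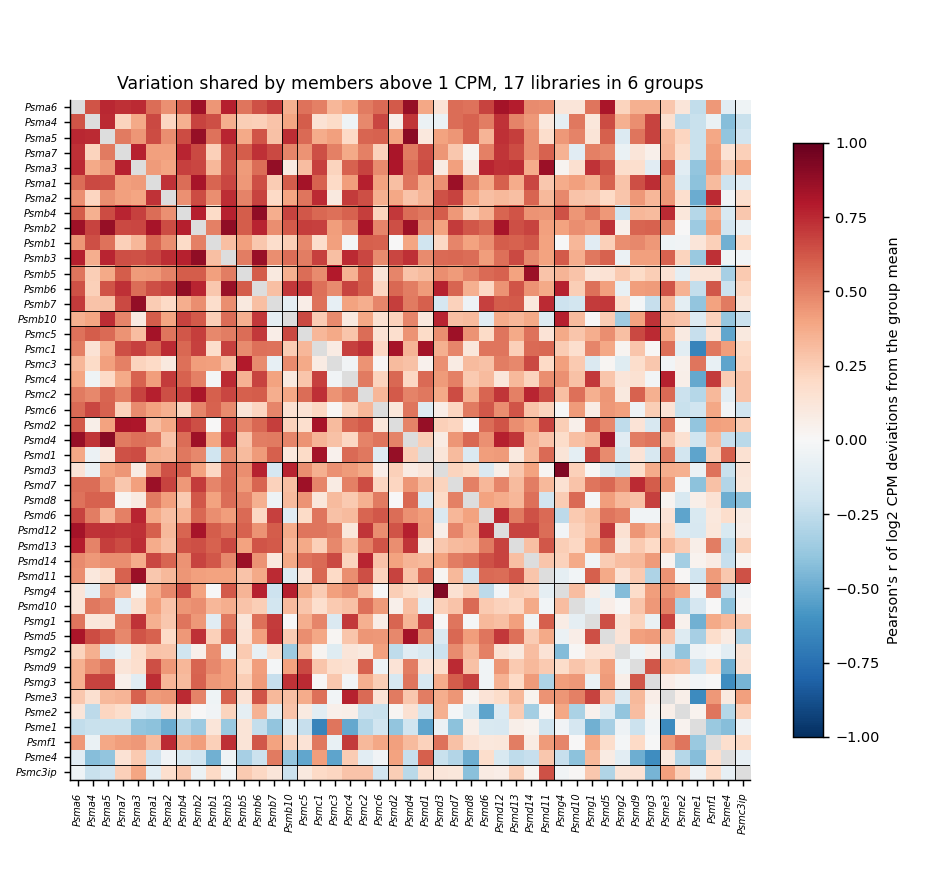
Pearson's r between each pair of the 45 genes of at least 1 CPM, over 17 libraries after taking out the mean of each of the 6 groups, ordered by role. Most pairs of core and cap genes are red, with some pairs below 0, and the row of Psme1 is mostly blue.

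The wider ubiquitin-proteasome pathway was described by 28 genes that do not carry a Psm name, covering ubiquitin genes, ubiquitin activation and shuttling, assembly and proteasome-bound factors, the p97 segregase and the Nfe2l1 branch. In SIT 0 were higher and 3 lower at an unadjusted p under 0.05, where 5.48% of all genes passed. Among them were Rps27a, which encodes ubiquitin fused to a ribosomal protein (log2 fold change -0.50, adjusted p = 0.905), and Ubb, a polyubiquitin gene (-0.17, adjusted p = 0.905). Rps27a was at 189, 117 and 159 CPM in ELE and at 240 and 197 in sedentary SIT libraries, which did not overlap. With all 8 SIT libraries 0 were higher and 0 lower, where 9.07% of all genes passed, and Rps27a was at -0.26 and Ubb at -0.01, both overlapping between groups.

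On the left 1 was higher, the shuttle factor Rad23b (0.22, adjusted p = 0.960), and 1 lower, Rps27a (-0.27, adjusted p = 0.960), where 3.94% of all genes passed. On the right 0 were higher and 0 lower, where 2.78% of all genes passed. Rps27a on the left was at 126, 135 and 113 CPM in ELE and at 155, 138 and 158 in sedentary mice, which did not overlap. Sums of 2 marker lists did not overlap between these left libraries either, oligodendrocyte markers at 2797 to 3095 CPM in ELE and 3156 to 3674 in sedentary mice and interferon-response genes at 90.9 to 96.88 against 96.93 to 99.3, and their part in the left results was not tested. The log2 fold change of Rps27a on the right was -0.14 (adjusted p = 0.9998). Ddi2, the protease that activates Nfe2l1, was at 0.31 on the left and 0.20 on the right, neither passing the unadjusted threshold, and over both hemispheres at 0.26 (adjusted p = 0.924). Over both, 1 of the 28 was higher at an unadjusted p under 0.05, which was Ddi2, and 1 lower, Rps27a at -0.21 (adjusted p = 0.919), where 5.31% of all genes passed. Nfe2l1, which induces proteasome genes when the proteasome is short, was at -0.01 in SIT, 0.06 on the left and 0.01 on the right, none passing the test. No pathway gene passed the adjusted p in these comparisons of exercise. Between isolations in sedentary mice 9 of the 28 were higher in SIT and 3 lower at an unadjusted p under 0.05, where 12.5% and 15.8% of all genes were. They ran from Rps27a at 0.57 and the proteasome-bound factor Zfand5 at 0.49 to the ubiquitin-activating enzyme Uba1 at -0.38. After adjustment 7 of the 28 passed between isolations, where 13.6% of all genes did.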

How the data were processed

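TRAP libraries were made by the authors with a directional poly(A) kit. The authors checked reads with FastQC 0.11.9, aligned them to GRCm38 with STAR 2.7.3a, removed duplicates with Picard 1.87 and counted reads per gene and strand with summarizeOverlaps. Per the submitters' processing notes R 4.1.0 and DESeq2 1.32.0 were used. Values are the raw counts the authors deposited, 45895097 to 65767802 per library, and 24 columns of per-sample values that belong to other samples were not used. Gene types were matched by identifier, 54587 of 55335 rows with version and 55154 with or without. The SIT libraries the study kept were found by matching its listed mean counts: 1 of 24 subsets matched 633 of 633 genes, the next 1 gene. Counts of replicate pairs differed by more than sampling noise (24 pairs, chi-square per gene 20.2 to 463).

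Group differences were tested with edgeR 4.0.16 in R 4.3.3 (TMM, filterByExpr, quasi-likelihood test, Benjamini-Hochberg adjustment over all genes tested), with only the groups compared in each fit. Log2 fold changes have 95% intervals from the test's t quantile. Correlations used log2 CPM with a pseudocount of 0.5 and genes of at least 1 CPM. Principal-transcript lengths, DESeq2 1.42.0, other scalings, no filter, a block by mouse number, all SIT libraries and leaving out each library were alternatives, and the test was tested on simulated data. Members and gene lists were chosen with earlier results of these data known. Genes given with values were those at an unadjusted p under 0.05 for exercise, the catalytic subunits and their counterparts, the highest and lowest gene of each role, and the 3 largest fold changes per comparison. Pathway genes were those at an unadjusted p under 0.05. The values of 1 pathway gene are not reported here. Other genes named were chosen after their values were seen.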

Additional observations from a re-analysis of the deposited data

Results flagged for a closer look

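Of 50 group values tested in the 2 groups of 4 SIT libraries, 3 had a library far from the others by Dixon's gap criterion, which chance alone meets in about 1 of 20 groups. The values tested did not cover every proteasome gene in both groups. Psmb3, a structural beta subunit, was at 58.8 CPM in the ELE library NT6.304, and the nearest of the other 3 was at 42.5. NT6.304 is outside the study's selection and had the highest summed core level. Psmc5, a base ATPase, was at 114 CPM in the sedentary library NT7.2.3, and the nearest was at 136. NT7.2.3 is one of the 2 libraries with high mitochondrial and microglial counts, whose part was not tested. Psma8 was at 0.0184 CPM in the ELE library TG7.4.1, which is 1 count, and at 0 in the other 3.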

How the results depend on the processing

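The 1 SIT gene, Psmb5, was lost (count 0) with all 8 libraries, with all 8 and the replicate block, without the low-count filter and with the NT6 mice alone. It was also lost without NT6.303, NT6.305, NT6.306 or TG7.4.2, with log2 fold changes of -0.27 to -0.20 over the omissions, which left 0 to 2 genes. With all 8 Psmb5 reversed to 0.090, and the SIT median went from -0.054 to 0.10 (0.048 with the block, 0.034 with the NT6 mice). Over both hemispheres the count of 1 became 0 under DESeq2, median-of-ratios scaling, no filter and the replicate block, and 0 to 1 over omissions. With all 4 sedentary SIT libraries the SIT-against-separate median was -0.045, and Psme2 (-0.0078) and Psme4 (0.17) reversed. The cause was not tested.

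Leaving out 1 library gave SIT medians of -0.08 to -0.04. With all 8 it gave 0 to 4 genes (4 without NT6.306) and medians of 0.06 to 0.17. On the left it gave 0 to 2 genes (2 without TG9.1.4) and -0.01 to 0.05, on the right 0 to 1 (1 without TG9.1.1) and -0.08 to 0.04. The interaction gave 0 to 1 and -0.041 to 0.087, both hemispheres -0.03 to 0.04, left against right 0 to 1 and -0.090 to 0.046, and isolation 5 to 19 (5 without NT6.305, 19 without TG9.1.1) and 0.08 to 0.14.

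Whether mouse numbers pair the left or right libraries was left undecided. Of 6 same-numbered pairs 3 had a correlation over 0.1 (-0.127 to 0.296), and pairs of other numbers ran from -0.309 to 0.357. So few pairs cannot settle it, and SIT libraries were not checked. With the replicate block 0 genes passed on the left and right (medians 0.02 and -0.01). Few counts limit Psmb8, Psmb9, Psmb11, Psma8 and Psme2b.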
